A study of Macaca fascicularis with 10 samples.

Results

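PEG3, MEST, H19 and ZNF597 are imprinted genes outside the SNRPN region, and their signal was read on 10 arrays of the Affymetrix Rhesus Macaque design, each carrying labelled RNA from cultured cells of the cynomolgus monkey (Macaca fascicularis). All probe sets annotated with 1 of these 4 symbols were taken, which gave 7 of the 52865 probe sets on the array, for 4 of the 14133 genes that have a probe set with 1 symbol. PEG3 had 2 (MmugDNA.25999.1.S1_at the brighter), MEST had 1 (MmugDNA.41111.1.S1_at), H19 had 3 (MmugDNA.16224.1.S1_s_at the second in brightness) and ZNF597 had 1 (MmugDNA.43532.1.S1_at). No probe set named a member among several symbols, and all 7 passed the filter on low signals. Each gene is described first by its brightest probe set. Values are linear signal intensities made by the authors with MAS5, and levels of different probe sets cannot be set against each other.

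The group of parthenogenetic haploid embryonic stem cells (PG-haESC, labelled haploid) held 5 arrays. In this group 4 arrays came from line MPH1, at passages 8 and 11 under code M1 and at passages 7 and 9 under code M2, and 1 came from line MPH2 at passage 4. Embryonic stem cells from blastocysts made by intracytoplasmic sperm injection (ICSI ESC, labelled diploid) gave 3 arrays of 3 lines, MES1 at passage 12 and MES2 and MES3 at passage 4. Female somatic fibroblasts (labelled diploid) gave 2 arrays of 1 line named MF, at passages 14 and 15. The growth protocol in the labels describes feeder cells for the PG-haESCs and 2 additives, spelled there Y27635 and Thiazovivin, and the stem cells were trypsinised before collection. Arrays of a line were at different passages, but nothing in the labels ties them to separate cultures. The p-values thus measure the spread between these samples, within and between lines, part of which may be technical. Because MPH1 gave 4 of the 5 haploid arrays, the haploid group is mainly 1 line.

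Imprinted genes are transcribed from the allele of 1 parent, as set by DNA methylation placed in the egg or sperm. Cells made from an egg genome alone carry maternal alleles, so genes of paternal expression are commonly silent in them. In human and mouse PEG3, a zinc finger protein, and MEST, a member of the alpha/beta hydrolase fold family, are expressed from the paternal allele, and human MEST also has an upstream promoter that is not imprinted. H19, a long noncoding RNA beside the growth factor gene IGF2, is expressed from the maternal allele, where the insulator protein CTCF binds its unmethylated control region. ZNF597, a further zinc finger gene, is maternally expressed in human. In the T2T-MFA8v1.1 assembly of this monkey PEG3 lies on chromosome 19, MEST on chromosome 3 and ZNF597 on chromosome 20, and H19 was not placed here.

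Arrays had been scaled to a trimmed mean of 500, and array medians ran from 76.8 to 133. The files used here hold no detection calls, so a signal at or under the array median is read as dim and not as absent. Genes called measured are those with a probe set above the array median on at least 2 arrays. Of 7 measured pluripotency markers, all 7 lay above the array median on every PG-haESC array and on MES2 and MES3. On MES1 6 did, and on fibroblast arrays 1 to 2. All 11 measured fibroblast markers lay above the median on both fibroblast arrays, while TWIST2 had a probe set but was too dim to be measured. All 9 measured epidermal markers also lay above it there, against 2 of 9 on each stem cell array. The MF arrays thus go against a pure fibroblast label. Of the 11 fibroblast markers 10 or 11 also lay above the median on each stem cell array. Their mean level ran from 9.28 to 12.13 log2 in PG-haESCs, from 9.58 to 13.35 in ICSI ESCs and from 13.75 to 13.76 on MF arrays, and its stem cell maximum was on MES1. The ratio of 3' to 5' signal of the actin control, a sign of RNA integrity, was 2.92 to 4.96 in PG-haESCs, 2.3 to 5.62 in ICSI ESCs and 8.39 and 9.14 on MF arrays. Spike-in controls were brightest on MPH1 at passage 11 (13.43 log2) and MES1 (13.15), against 11.91 to 12.52 elsewhere. In RNA of whole cultures, fewer expressing cells and less RNA per cell cannot be told apart.

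**Figure D1:**
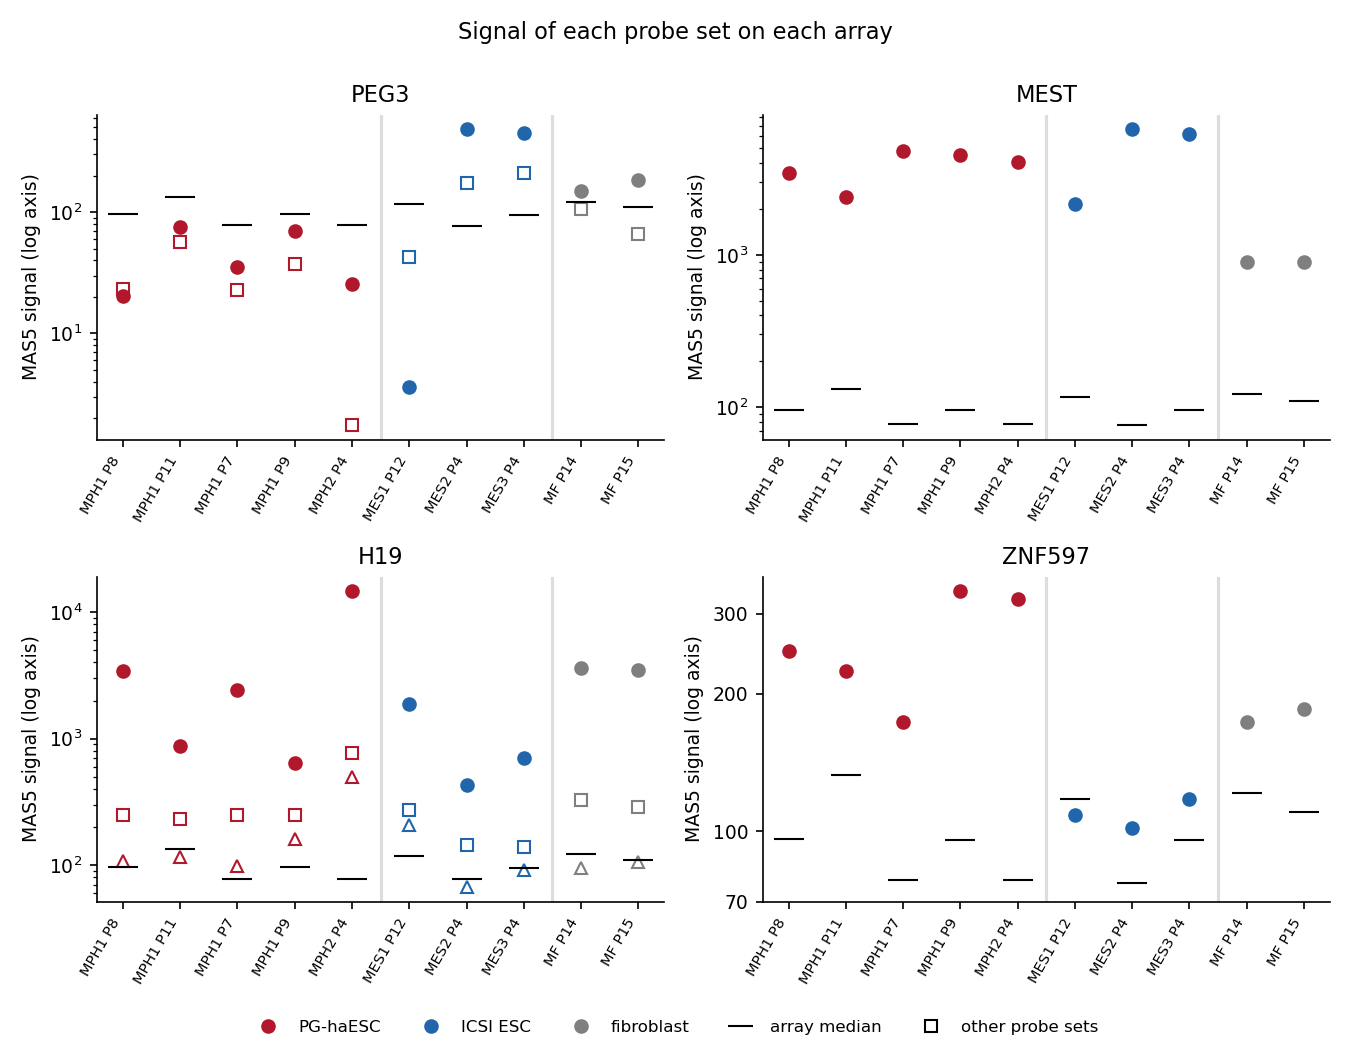
MAS5 signal (log axis) of the 7 probe sets on each of the 10 arrays, named by line and passage. Filled circles are the brightest probe set of each gene, open symbols its other probe sets, and black dashes the median of each array. PEG3 stands above the array median on both probe sets for MES2 and MES3 alone, and the 5 PG-haESC signals of ZNF597 lie above the 3 ICSI ESC signals.

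Setting PG-haESCs against ICSI ESCs compares cells with maternal chromosomes alone, labelled haploid, with cells of a fertilised embryo, labelled diploid. Parental origin, ploidy and line differ together between these groups and cannot be told apart. None of the 7 probe sets passed the test between the groups (limma, Benjamini-Hochberg adjusted p under 0.05 over the 34140 probe sets tested), where 0.451% of all probe sets passed, 0.366% higher and 0.0849% lower in PG-haESCs. At an unadjusted p under 0.05, 3 of the 7 did, against 7.37% of all. These were ZNF597 and the second probe sets of PEG3 and H19, while the brightest probe sets of PEG3 and H19 did not. That PEG3 probe set entered the test through MES2 and MES3 alone. The members were also chosen with earlier results of these data known, so nothing is read from this count. ZNF597 was the 1 probe set whose 5 PG-haESC signals all lay above the 3 ICSI ESC signals, which held for 4.42% of all probe sets. For 2.91% of all probe sets every PG-haESC signal lay below every ICSI ESC signal, and none of the 7 was among them.

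PEG3, the zinc finger gene of paternal expression, was dim in all haploid cells and above the array median in 2 of the 3 ICSI lines. In MPH1 its signal was 20.4 and 74.9 at passages 8 and 11 of code M1 and 35.4 and 70.3 at passages 7 and 9 of code M2, and in MPH2 it was 25.6. In the ICSI ESCs it was 3.63 in MES1, 482 in MES2 and 447 in MES3. All 5 PG-haESC signals lay between 0.213 and 0.734 times their array's median, MES2 and MES3 lay at 6.27 and 4.68 times theirs, and MES1 lay at the 1.4th percentile of its array. MES1 was thus the lowest of all 10 arrays, and the groups overlapped through it.

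The PEG3 difference between the groups was -1.31 log2 (95% interval -4.50 to 1.88, limma, adjusted p = 0.967). The fit gives arrays of 1 line less weight each, so its differences need not equal those of group means. Geometric means were 39.6 in PG-haESCs (n = 5, SD 0.85 log2) and 92.1 in ICSI ESCs (n = 3, SD 4.04 log2). Without MES1 the probe set passed, with -3.60 ± 0.63 log2 (SE, limma, adjusted p = 0.0213; 0.0191 to 1 over all alternatives). With each haploid signal raised to its array's median, PG-haESCs were then at least 4.93-fold lower. That value was reached by leaving out the 1 array that departs from its group, so it describes MES2 and MES3 and not the ICSI ESC group.

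The second PEG3 probe set showed the same split of the ICSI lines. Its signal was 23.0, 57.1, 22.9 and 37.5 in MPH1 (passages 8, 11, 7 and 9) and 1.77 in MPH2, against 42.3 in MES1, 174 in MES2 and 210 in MES3. MES1 was again under its array's median, at 0.36 times, while MES2 and MES3 were at 2.27 and 2.2 times theirs. The difference was -3.16 ± 1.16 log2 (SE, limma, adjusted p = 0.467), and without MES1 it was -3.64 ± 1.21 (adjusted p = 0.229). This probe set entered the test through MES2 and MES3 alone, the 2 arrays needed, so a fall in PG-haESCs was favoured by the filter. The correlation of the 2 PEG3 probe sets over the 8 stem cell arrays was 0.58 (Pearson, log2, a description).

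MES1 differs from MES2 and MES3 in line, in passage (12 against 4) and in spike-in signal (13.15 against 11.91 and 12.26 log2). It also differs in actin 3' to 5' ratio (5.62 against 2.3 and 2.97) and in fibroblast marker level (13.35 against 9.58 and 11 log2). Its mean pluripotency marker level was lower (11.79 against 12.67 and 12.75 log2), and 1 of these markers, ZFP42, was under its array's median (92.85 against 117.3). The part of each in the low PEG3 signal was not tested, and with 1 array per line they cannot be told apart. SNRPN, another gene of paternal expression, was 18590 in MES1, 20960 in MES2 and 26540 in MES3, so MES1 was low in PEG3 and not in SNRPN. PG-haESC signals of SNRPN were 161 to 680.

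MEST, the hydrolase fold gene, was bright in every stem cell line, haploid cells included. Its signal was 3447 and 2392 in MPH1 under code M1 (passages 8 and 11), 4770 and 4483 under code M2 (passages 7 and 9) and 4035 in MPH2. In ICSI ESCs it was 2158 in MES1, 6653 in MES2 and 6239 in MES3. Each PG-haESC signal lay above that of MES1 and below those of MES2 and MES3. The geometric means were 3719 in PG-haESCs (n = 5, SD 0.40 log2) and 4474 in ICSI ESCs (n = 3, SD 0.91 log2).

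The difference in MEST was -0.25 log2 (95% interval -1.09 to 0.59, limma, adjusted p = 0.978), an interval that holds changes of either sign. The lowest stem cell signals, in MES1 and in MPH1 at passage 11, were on the 2 arrays with the brightest spike-in controls. Without those 2 arrays, an alternative chosen after seeing the data, the difference was -0.64 ± 0.17 (SE, adjusted p = 0.129), and all 4 remaining PG-haESC arrays were lower than both remaining ICSI ESC arrays. The sign turned to 0.04 without MES2. MEST was at 18 to 61.2 times the array median on the 5 haploid arrays.

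**Figure D2:**
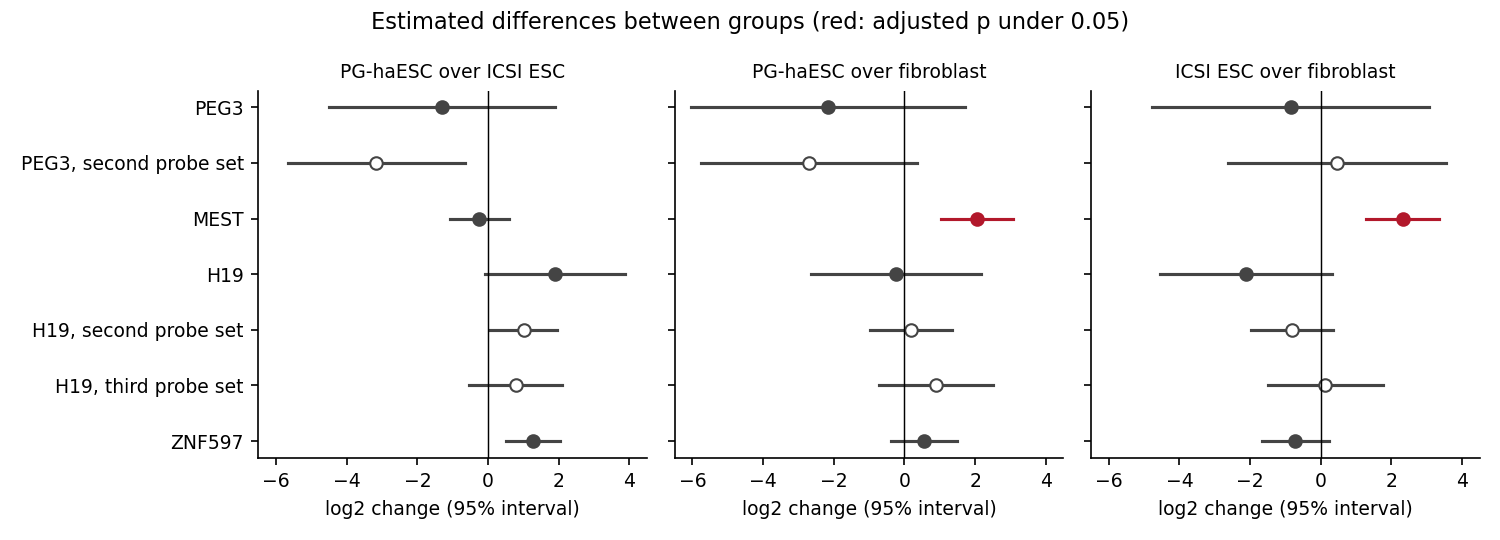
Log2 change with its 95% interval for each of the 7 probe sets in the 3 comparisons of groups, first-named group over second. Filled points are the brightest probe set of a gene and red marks an adjusted p under 0.05, which MEST alone reached, in both comparisons with the MF arrays.

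H19, the maternally expressed noncoding RNA, spanned 22.7-fold among the 5 haploid arrays and did not pass between the groups. On its brightest probe set MPH1 had 3432 and 867 under code M1 (passages 8 and 11) and 2429 and 645 under code M2 (passages 7 and 9), and MPH2 had 14625. ICSI ESCs had 1862 in MES1, 429 in MES2 and 698 in MES3. MPH2 was highest of all 10 arrays, at 188 times its array's median, and the groups overlapped. The geometric means were 2327 in PG-haESCs (n = 5, SD 1.79 log2) and 823 in ICSI ESCs (n = 3, SD 1.08 log2). The difference was 1.89 log2 (95% interval -0.09 to 3.87, limma, adjusted p = 0.717). Without MPH2, which gave the value most of its size, it was 0.84 log2.

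The name of this probe set and of the second ends in a suffix that Affymetrix gives to probe sets matching several transcripts, so their identity as H19 is less certain. The second H19 probe set was 247, 233, 249 and 249 in MPH1 (passages 8, 11, 7 and 9) and 772 in MPH2, against 271 in MES1, 143 in MES2 and 138 in MES3. Its difference was 1.01 ± 0.44 log2 (SE, limma, adjusted p = 0.624). The third was 107, 115, 97.8 and 160 in MPH1 and 501 in MPH2, against 208 in MES1, 67.3 in MES2 and 91.8 in MES3 (0.78 ± 0.61 log2, adjusted p = 0.926). On all 3 probe sets MPH2 was the highest array, and MES1 the highest of the ICSI ESC arrays. Over the 8 stem cell arrays the Pearson correlations between the H19 probe sets were 0.76 to 0.93 (log2, a description).

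Within MPH1 the brightest H19 probe set was lower at the later passage under both codes. Under M1 it was 867 at passage 11 and 3432 at passage 8, a ratio of 0.253, and under M2 it was 645 at passage 9 and 2429 at passage 7, a ratio of 0.266. The other probe sets did not show this: the second had ratios of 0.944 and 0.999 and the third of 1.08 and 1.63. With 1 array at each passage these are values with no test. Among ICSI ESCs the array at passage 12 was higher than both at passage 4, but these are different lines. Passage and line cannot be told apart there.

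**Figure D3:**
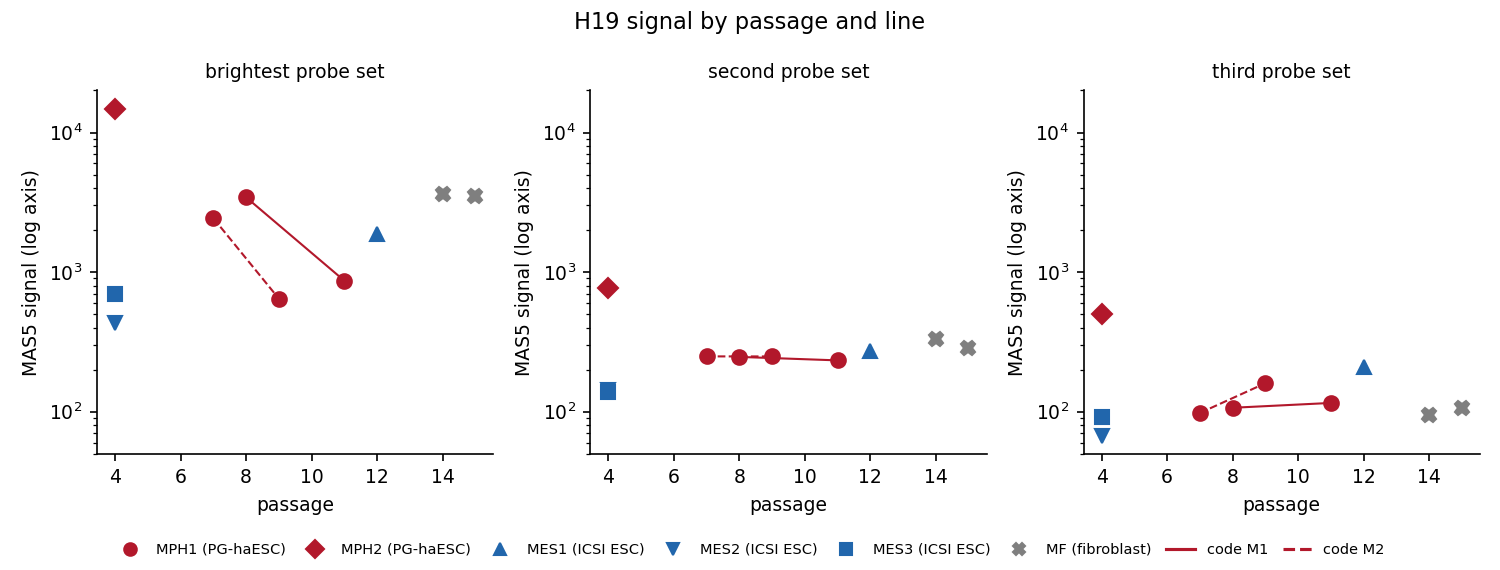
Signal (log axis) of the 3 H19 probe sets against passage, with a symbol for each line and lines joining the passages of codes M1 and M2 of MPH1. The fall between passages within each code is seen on the brightest probe set alone, while MPH2 at passage 4 is highest on all 3.

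Markers of other cells differed between the same arrays. The mean level of 9 trophoblast markers was 8.43 log2 in MPH2, 7.16 to 8.16 in MPH1 and 6.48 to 7.6 in ICSI ESCs. It was higher still on the MF arrays (9.67 and 9.62), so a high level on this list does not mark trophoblast here. Its genes also differed, as TFAP2A was higher in MPH2 (3367) than in MPH1 (183 to 1279) and VTCN1 lower (543 against 1137 to 2208). The mean level of 9 endoderm markers was 7.13 in MPH2, 7.3 to 9.67 in MPH1 and 8.93 to 10.06 in ICSI ESCs. In MPH1 the fibroblast markers were at 12.13 and 11.68 log2 at the later passages and at 10.37 and 9.28 at the earlier ones. Of the H19 probe sets the brightest alone was low at those later passages. In MES1, where H19 was highest among ICSI ESCs, the fibroblast markers were at 13.35. The relation of these marker levels to the H19 signal was not tested.

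ZNF597, the zinc finger gene of maternal expression, was the member that separated the haploid from the ICSI cells on every array. Its signal was 248 and 225 in MPH1 under code M1 (passages 8 and 11), 174 and 336 under code M2 (passages 7 and 9) and 324 in MPH2. ICSI ESCs had 108 in MES1, 102 in MES2 and 118 in MES3. All 5 PG-haESC signals lay above all 3 ICSI ESC signals, and the 3 ICSI lines lay within 1.16-fold of each other.

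Geometric means of ZNF597 were 254 in PG-haESCs (n = 5, SD 0.39 log2) and 109 in ICSI ESCs (n = 3, SD 0.10 log2). The difference was 1.27 log2 (95% interval 0.50 to 2.04), 2.41-fold higher in PG-haESCs (limma, adjusted p = 0.208), so it did not pass over all probe sets. PG-haESC signals were 1.7 to 4.15 times their array medians and ICSI ESC signals 0.923 to 1.33 times. The estimate kept its sign and stayed between 1.07 and 1.39 under the 24 alternatives that gave one, and the adjusted p ran from 0.0685 to 0.566. Leaving out each array in turn gave 1.13 to 1.39.

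**Figure D4:**
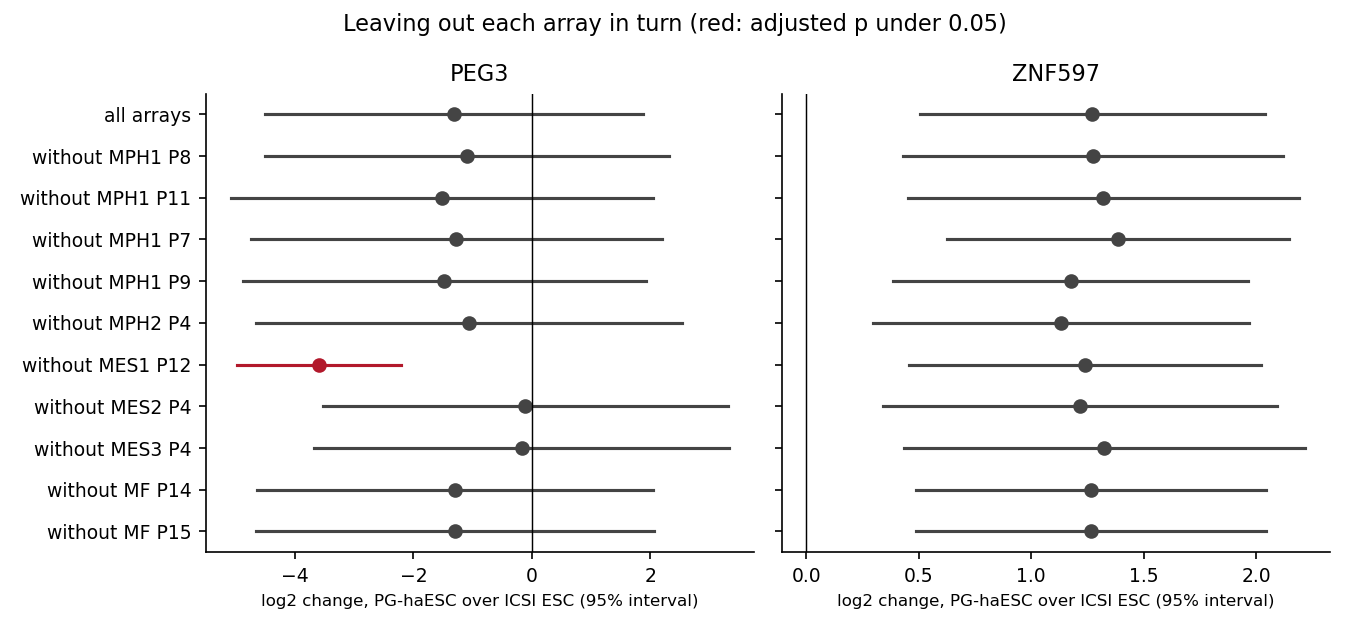
Log2 change of PEG3 and ZNF597, PG-haESC over ICSI ESC, with its 95% interval, for all arrays and with each array left out. PEG3 passed (red) without MES1 P12 alone and was near 0 without MES2 P4 or MES3 P4, while ZNF597 stayed between 1.13 and 1.39.

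Over all genes tested, 0.505% rose and 0.0685% fell in PG-haESCs against ICSI ESCs, and nothing is read from counts of 0 in short lists against such shares. Of 11 measured neighbours of ZNF597 none passed between PG-haESCs and ICSI ESCs, and their median log2 change was -0.18, with -0.02 over all 11676 genes tested. NAA60, the next gene in the assembly and a maternally expressed acetyltransferase gene in human, had 884 to 1425 in PG-haESCs and 981 to 1531 in ICSI ESCs (-0.28 log2, adjusted p = 0.94). ZNF174, the neighbour on the other side, had 80.1 to 144 in PG-haESCs and 78.8 to 104 in ICSI ESCs (0.31 log2, adjusted p = 0.98). The smallest p belonged to TRAP1, a mitochondrial chaperone gene (-0.62 log2, adjusted p = 0.54).

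None of 14 measured genes near H19 passed (median -0.07). IGF2, the growth factor gene regulated with H19 in other mammals, lay on both sides of the array medians, with 36.2 to 226 in PG-haESCs and 69.7 to 102 in ICSI ESCs (-0.14 log2, adjusted p = 0.99). PHLDA2, a maternally expressed growth restraint gene of the same region, had 1188, 1581, 996, 2252 and 1227 in PG-haESCs, against 1623, 2722 and 3885 in ICSI ESCs (-0.92 ± 0.35 log2, SE, adjusted p = 0.51). The organic cation transporter gene SLC22A18 had 0.66 log2 (adjusted p = 0.81). H19, PHLDA2 and SLC22A18, all maternally expressed in human or mouse, thus had estimates of both signs, none of which passed.

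None of 6 measured genes near MEST passed (median 0.15), nor any of 5 near PEG3 (median 0.26). COPG2, a coat protein gene beside MEST, had 111 to 211 in PG-haESCs and 138 to 185 in ICSI ESCs (0.14 log2, adjusted p = 0.99). USP29, which lies near PEG3 and is paternally expressed in mouse and human, did not reach the median on 2 arrays and was not tested. ZNF71, the nearest tested gene to PEG3, had 28.2 to 104 in PG-haESCs and 129 to 142 in ICSI ESCs (-1.08 log2, adjusted p = 0.84).

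Other imprinted genes were counted from lists written with earlier results of these data known. The list of maternally expressed genes also holds UBE3A and ATP10A, which lie in the SNRPN region, and the list of paternally expressed genes also holds RB1, which in human is expressed mainly from the maternal allele. Without PEG3 and MEST, none of the 9 measured genes of the paternal list passed between PG-haESCs and ICSI ESCs (median 0.23, range -1.79 to 1.06). The transcription factor gene PLAGL1 had 3.6 to 98.6 in PG-haESCs, against 488 in MES1, 48.0 in MES2 and 89.4 in MES3 (-1.79 log2, adjusted p = 0.89), so its 1 high signal was on the array where PEG3 was lowest. RB1, the retinoblastoma gene, had 2794 to 4169 in PG-haESCs and 2142 to 2650 in ICSI ESCs (0.47 log2, adjusted p = 0.52), and the phosphatase gene INPP5F had 1.06 log2 (adjusted p = 0.86). Without H19 and ZNF597, none of the 16 measured genes of the maternal list passed (median 0.02, range -0.92 to 0.66). H19 and ZNF597 had the highest 2 estimates of the 18 measured genes of the maternal list, which is a description and not a test. Both members were also chosen with earlier results of these data known, so nothing is read from this order. Expression from each allele was not measured in these cells for any listed gene.

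**Figure D5:**
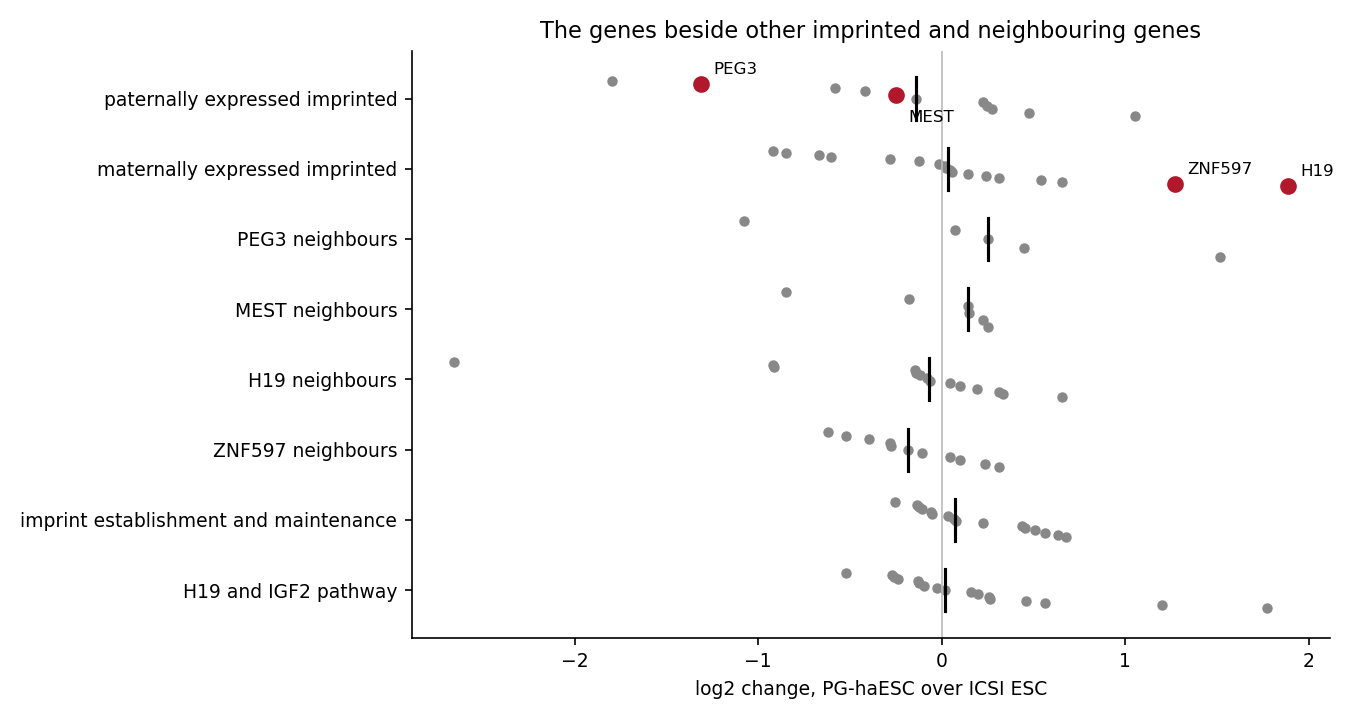
Log2 change, PG-haESC over ICSI ESC, of the measured genes of 8 lists, with the 4 members in red and a bar at each list's median. H19 (1.89) and ZNF597 (1.27) lie beyond the other maternally expressed genes (-0.92 to 0.66), and no gene shown passed the test. Members and lists were chosen with earlier results of these data known, so nothing is read from this order. The interval of H19 ran from -0.09 to 3.87, and its estimate was 0.84 without the MPH2 array. RB1 is shown with the paternal list, although in human it is expressed mainly from the maternal allele.

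Genes that place or keep methylation imprints, and genes of the H19 and IGF2 pathway, gave the same count of 0 between these groups, of 16 and of 17 measured. The smallest p in the first list was that of NAA10, an X-linked acetyltransferase gene (0.56 log2, adjusted p = 0.33). In the second it was that of IGFBP3, which binds insulin-like growth factors. IGFBP3 had 1197 and 576 in MPH1 under M1, 1303 and 1244 under M2 and 4524 in MPH2, against 715 in MES1, 430 in MES2 and 364 in MES3 (1.77 ± 0.53 log2, SE, adjusted p = 0.27). MPH2 was thus the highest stem cell array for IGFBP3 as for H19.

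The comparisons with the MF arrays set both kinds of stem cells against differentiated cells. MEST was the 1 member that passed, in both comparisons, where 33.0% of all probe sets passed for PG-haESCs and 32.7% for ICSI ESCs, so 1 of 7 is below the background share. At an unadjusted p under 0.05 it was again 1 of 7 in each, against 42.2% of all probe sets for PG-haESCs and 42.3% for ICSI ESCs. MEST averaged 3719 in PG-haESCs and 898 on the MF arrays (895 and 901), and all 5 haploid signals lay above both. It was 4.19-fold higher in PG-haESCs (2.07 ± 0.47 log2, SE, limma, adjusted p = 0.0047). ICSI ESCs averaged 4474 and were 4.98-fold higher (2.32 ± 0.47 log2, adjusted p = 0.00243), with all 3 signals above both MF signals. Such separation above the MF arrays held for 26.5% of all probe sets in PG-haESCs and 29.6% in ICSI ESCs, and MEST was the 1 of 7 in each. Separation below them held for 31.4% in PG-haESCs, with both PEG3 probe sets among the 7, and for 34.4% in ICSI ESCs, with 3 of the 7 (H19 on 2 probe sets, and ZNF597). MF arrays were at later passages than all stem cell arrays. With passage as a covariate, chosen after seeing the data, neither call was kept (0.90 ± 0.36 log2, adjusted p = 0.086, for PG-haESCs, and 1.05 ± 0.37, adjusted p = 0.0612, for ICSI ESCs; 1.3e-05 to 0.086 and 5.3e-06 to 0.0612 over all alternatives). With arrays averaged per line the first was also lost, narrowly (2.09 log2, adjusted p = 0.0505).

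The other members did not pass against the MF arrays. H19 had 645 to 14625 in PG-haESCs, a range that held both MF signals of 3623 and 3510 (-0.23 ± 1.11 log2, SE, adjusted p = 0.905). Its ICSI ESC signals of 429 to 1862 all lay below those of MF (-2.12 ± 1.12 log2, adjusted p = 0.172). ZNF597 had 174 to 336 in PG-haESCs, against 173 and 186 on MF arrays (0.55 ± 0.43 log2, adjusted p = 0.366), and its ICSI ESC signals of 102 to 118 lay below both (-0.72 ± 0.43 log2, adjusted p = 0.234). PEG3 had 20.4 to 74.9 in PG-haESCs, below the 149 and 185 of the MF arrays (-2.16 ± 1.79 log2, adjusted p = 0.398). In ICSI ESCs the MF values lay above MES1 and below MES2 and MES3 (-0.85 ± 1.80 log2, adjusted p = 0.767). Without MES1, which enters the shared estimate of spread, PEG3 passed between PG-haESCs and MF arrays (-2.12 ± 0.66 log2, adjusted p = 0.0222; 0.0164 to 0.598 over all alternatives), at least 1.77-fold lower in PG-haESCs. Its second probe set was under the median on both MF arrays (107 and 65.5).

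The order of group levels differed from gene to gene. ZNF597 had geometric means of 254 in PG-haESCs, 109 in ICSI ESCs and 179 on MF arrays, and H19 had 2327, 823 and 3566 in the same groups. For neither gene did any 2 of these groups pass the test. MEST had 3719 in PG-haESCs, 4474 in ICSI ESCs and 898 on MF arrays, and the stem cell groups did not differ beyond their spread. PEG3 had 39.6 in PG-haESCs, 92.1 in ICSI ESCs and 166 on MF arrays, but the ICSI ESC mean describes none of its 3 lines.

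Other imprinted genes also differed between stem cells and MF arrays. Without the 4 members, 2 of the 9 genes of the paternal list rose (DLK1, and RB1, of mainly maternal expression in human) and 1 fell (PLAGL1) in PG-haESCs, and 3 of the 16 genes of the maternal list rose and 5 fell, ATP10A of the SNRPN region among the 5, where 23.0% of all genes rose and 17.2% fell. In ICSI ESCs 1 of 9 and 3 of 16 rose and 0 of 9 and 3 of 16 fell, where 22.5% of all genes rose and 17.0% fell. TFPI2, a protease inhibitor gene near the imprinted PEG10 region, had 417 to 2188 in PG-haESCs and 637 to 3268 in ICSI ESCs, against 50.04 and 46.6 on MF arrays (adjusted p = 0.00056 and 0.00024). GRB10, an adaptor of insulin receptor signalling, had 1845 to 4160 in PG-haESCs and 2625 to 3239 in ICSI ESCs, against 1227 and 1113 (adjusted p = 0.0069 and 0.0041). DLK1, a Notch family ligand gene, rose in both as well, with 154 to 592 in PG-haESCs and 114 to 872 in ICSI ESCs, against 76.3 and 9.19 (adjusted p = 0.018 and 0.028). IGF2R, the receptor that clears IGF2, fell in both, with 3014 to 3889 in PG-haESCs and 3017 to 3829 in ICSI ESCs, against 5423 and 5794 (adjusted p = 0.0093 and 0.0086). PLAGL1 fell in PG-haESCs against 1047 and 965 on the MF arrays (adjusted p = 0.024), and its estimate for ICSI ESCs did not pass (adjusted p = 0.14).

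For each member the 3 genes with the most similar signal over the 8 stem cell arrays were taken from 9653 genes, by Pearson r of log2 signal. With 8 arrays and so many genes high values of r arise easily, and none was tested. PEG3 was followed by OCLN (r = 0.956), PATL1 (0.950) and NAXD (0.944). Each of these 3 had its highest stem cell signals in MES2 and MES3 and its lowest in MES1, as PEG3 did, which their choice by r favoured. MEST was followed by ARHGEF16 (0.985), ATXN3 (0.976) and BRD3 (0.973), H19 by LNP1 (0.968), PLA2G7 (0.940) and DMXL2 (0.924), and ZNF597 by GSTO2 (0.957), GABRE (0.939) and GPM6A (0.937). GSTO2 had 347 to 461 in PG-haESCs and 276 to 300 in ICSI ESCs, and on the MF arrays, where ZNF597 lay between the groups, it had 231 and 210. Among the members themselves r over these arrays was 0.79 between PEG3 and MEST, 0.47 between H19 and ZNF597 and -0.62 between PEG3 and H19. The other pairs had -0.29 to -0.19. Of the stem cell arrays, MES1 was lowest and MES2 and MES3 highest for both PEG3 and MEST.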

How the data were processed

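The deposited values are MAS5 signal intensities, which the authors scaled to the same trimmed mean on every array (MAS5 is named in the submitters' processing notes, with no release). RNA had been labelled with biotin by the Affymetrix 3' IVT Express Kit, per the labels' protocols. Gene symbols came from the platform annotation, where 24956 probe sets of those left after removing 158 controls had 1 symbol, 361 had several and 27390 had none. No genome build accompanies them, so no coordinates are given. Control probe sets were left out, and the 34140 probe sets above the array median on at least 2 arrays were tested. Signals were taken as log2 with no offset and fitted in limma 3.58.1 (R 4.3.3) with group means of all 10 arrays, the line as a random effect (estimated correlation 0.29), an intensity trend and Benjamini-Hochberg adjustment over all tested probe sets. A gene was represented by its brightest probe set. Where a group was below the array median, the fold is a bound, taken with each dim signal raised to that median. The scripts were tested on simulated data. The number of arrays limits the precision.

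The members and gene lists were chosen with earlier results of these data known. The 4 members were named with all their probe sets. From each list, genes past the threshold and up to 4 with the smallest p could be named, and for each member the 3 genes with the highest r. Genes beside a member, IGF2, USP29 and single markers were named after their values were seen. Alternatives changed the treatment of lines, the low signals, the scaling, the filter, the variance model, the probe set summary, the groups fitted and each array in turn. Leaving out the 2 arrays of highest spike-in signal and a passage covariate were added after seeing the data. Figures were drawn with matplotlib 3.10.9.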

Additional observations from a re-analysis of the deposited data

Results flagged for a closer look

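All 5 values that stood apart within the PG-haESC group were on the array of MPH2, the 1 array of the second haploid line. The ICSI ESC and MF groups were too small for the rule and were not checked. The low PEG3 signal of MES1 could thus not be noted here. In a group of 5 arrays a value was noted when its gap to the nearest other array exceeded 0.71 of the group's range. H19 had a signal of 14625.4 on its brightest probe set, 771.504 on the second and 500.523 on the third, each the highest of the PG-haESC group. The second probe set also stood apart on the log2 scale (9.59), and the other H19 probe sets did not. PEG3 had a log2 signal of 0.82 on its second probe set, the lowest of the group, but MPH2 did not stand apart on the brighter PEG3 probe set. Of 14 probe set and scale combinations 5 passed, where chance gives about 1 in 20 for independent arrays of 1 population. All arrays of the group but MPH2 came from MPH1, so that rate does not hold here and nothing is read from the count. Each probe set was also counted on both scales. The values share 1 array, and probe sets of a gene are not independent. What sets MPH2 apart (line, passage 4 or array) cannot be told apart with 1 array.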

How the results depend on the processing

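Of 12 gene results, 5 kept their sign and side of the threshold under every alternative run. They were ZNF597 in all 3 comparisons and H19 in PG-haESCs against ICSI ESCs and in ICSI ESCs against fibroblasts. None of these 5 passed, so they were stable as results short of the threshold. Both MEST calls against fibroblasts were lost under at least 1 alternative. The count of probe sets past the threshold between PG-haESCs and ICSI ESCs, 154, was unstable. It was 475 with arrays as independent samples, 9 with lines averaged, 256 with the description code as random effect, 14 with arrays centred on their medians, 102 with the 75th percentile filter, 13 with no variance trend, 84 with only the groups compared, 431 without the 2 arrays of highest spike-in signal, 287 with passage as a covariate and 8 (without MES3) to 393 (without MES1) leaving out each array. Of the 154 calls 81.2% were higher in PG-haESCs, against 21.4% of the 14 with centring, 46.2% of the 13 with no variance trend and 0.0% of the 9 with lines averaged. Against fibroblasts centring moved the higher share to 63.7% for PG-haESCs (51.4%) and 61.6% for ICSI ESCs (50.5%), and the median of all probe sets to 0.24 and 0.23 log2 (-0.09 and -0.05). With lines averaged 6294 probe sets passed between PG-haESCs and fibroblasts, against 11275.

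For PEG3, PG-haESC over ICSI ESC gave -3.83 log2 (adjusted p = 0.0191) without the 2 spike-in arrays and -3.60 to -0.11 leaving out each array. PG-haESC over fibroblast gave -2.35 (adjusted p = 0.0164) and -2.37 to -1.91. The sign of ICSI ESC over fibroblast turned to 0.055 with the offset of 32, 0.82 with low signals raised to the median and 1.48 without the 2 arrays, with -2.05 to 1.48 leaving out each array. H19 in PG-haESCs over fibroblasts turned to 0.38 with lines averaged, 0.012 with centring, 0.31 as the mean of its probe sets and 0.0052 without the 2 arrays, with -1.28 to 0.17 leaving out each array. MEST in PG-haESCs over ICSI ESCs ran from -0.78 to 0.0355 leaving out each array. Its calls against fibroblasts were lost with passage as a covariate (0.90 for PG-haESCs and 1.05 for ICSI ESCs) and, for PG-haESCs, with lines averaged (2.09). The causes were not tested. ZNF597 is not tested under the 75th percentile filter, and the fit of ICSI ESCs and fibroblasts alone was not run because it holds no line correlation to estimate. No paired analysis was possible because the numbers shared between groups name lines and not matched samples. Signals near or under the array median limit what PEG3, IGF2, the third H19 probe set and, in ICSI ESCs, ZNF597 can show.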

Other observations

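Of 16 measured genes that place, keep or remove DNA methylation, 8 rose, 4 fell and 4 did not pass in PG-haESCs against fibroblast arrays, and as many in ICSI ESCs, where 23.0% and 22.5% of all genes rose and 17.2% and 17.0% fell. DNMT3B, a de novo methyltransferase and itself a stem cell marker, had 13950 to 21410 in PG-haESCs and 9593 to 15080 in ICSI ESCs, against 389 and 363 on fibroblast arrays (limma, adjusted p = 3.6e-08 and 9e-08). UHRF1, which brings DNMT1 to replicated DNA, had 4182 to 7218 in PG-haESCs and 3820 to 4481 in ICSI ESCs, against 369 and 239 (adjusted p = 1.1e-06 and 1.9e-06). TRIM28, the corepressor that guards imprints with KRAB zinc finger proteins, had 1528 to 2137 in PG-haESCs and 1758 to 2242 in ICSI ESCs, against 357 and 400 (adjusted p = 8.5e-06 and 6.7e-06). TET1 and TET2, which oxidise methylcytosine, moved in opposite directions. TET1 rose by 4.52 log2 in PG-haESCs and 4.08 in ICSI ESCs, and TET2 fell by 2.99 and 3.62. DNMT1, the maintenance methyltransferase, fell in both (adjusted p = 0.027 and 0.024).

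Among 17 measured genes of the H19 and IGF2 pathway 8 rose and 4 fell in PG-haESCs, and as many in ICSI ESCs, where 23.0% and 22.5% of all genes rose and 17.2% and 17.0% fell. LIN28B, which blocks maturation of let-7 microRNAs, had 6542 to 9325 in PG-haESCs and 5197 to 9005 in ICSI ESCs, against 5.27 and 9.41 on fibroblast arrays. IGF2BP1, an RNA-binding protein gene, had 542 to 757 in PG-haESCs and 340 to 574 in ICSI ESCs, against 64.7 and 72.2. ELAVL1, another RNA-binding protein gene, fell in both (adjusted p = 0.00075 and 0.0012). The fibroblast arrays also carried epidermal markers, and the part of those cells in these differences was not tested.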
